A study of Mus musculus with 12 samples.

Results

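The 50 genes described here encode the proteins that copy DNA and carry out mitosis in B16F10 cells, a mouse melanoma line from C57BL/6 mice. They were chosen by symbol, and each symbol matched 1 of the 54232 genes in the deposited count table. All 50 had counts in each of the 12 libraries and passed the filter on low counts. RNA was sequenced from 4 groups of 3 libraries. WT 1, 2 and 3 were cultured cells that received no treatment. ITF1, Rel and ITM, called the relapsed lines, were grown from cells that were injected under the skin of 6-week-old mice, received immunotherapy as tumors, were sorted from the tumors that came back, and were then cultured to confluency. Lyso 1, 2 and 3 were cultured cells incubated for 48 hours, by their labels, with lysosomes (granules) derived from T cells, while the study's methods give a much shorter time for granule treatment before RNA was taken, so that the length of exposure is uncertain. Tumor 1, 3 and 4 were sorted by flow cytometry from relapsed tumors of the same kind of mice, and their RNA was taken at once. In the study's methods the immunotherapy was an antibody against the melanoma antigen TRP1 with TNFα and anti-CD40, or transferred T cells, and the labels do not say which of these a library received. Each relapsed line gave 1 library, all groups derive from 1 parental line, and the labels do not say whether each Tumor library came from 1 mouse or at what density the WT cells were taken, so p-values measure the spread between these libraries.

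A cell that divides first commits to the cycle in G1, when D-type and E-type cyclins with their kinases inactivate the RB protein and release E2F transcription factors. E2F activates the genes of DNA synthesis. Replication origins are licensed by CDC6 and CDT1, which load the MCM2 to MCM7 ring, and CDC45 with the GINS complex turns this ring into the moving helicase. In G2 and M, cyclin A and cyclin B with CDK1, and the PLK1 and Aurora kinases, condense the chromosomes and build the spindle. The spindle checkpoint then holds the anaphase-promoting complex (APC/C) until every kinetochore is attached. Because most of these transcripts are made in S or G2/M, their level in bulk RNA is widely used as a readout of proliferation, although fewer dividing cells and less RNA per dividing cell cannot be told apart in bulk samples. The members were read in 6 role groups: licensing and helicase (11 genes), DNA and nucleotide synthesis (7), G1/S regulators (7), G2/M cyclins and kinases (9), spindle checkpoint and APC/C (5), and chromosome, kinetochore and spindle (11).

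The libraries differed in depth, from 1667398 counts on genes in WT 1 to 16402629 in the deepest relapsed line, with 3102442 to 5049496 in Tumor and only 2350129 in WT 2. The lowest raw count of any member was 29 (E2f2 in WT 1), so the members were measurable in every library. The 10 melanocyte markers were above 3 counts in all 12 libraries, and their summed level was 19811 to 28448 CPM (counts scaled to library size, with TMM factors) in WT and 20546 to 22660 in Tumor. It was 23156 to 37434 CPM in the relapsed lines and 29870 to 30651 in Lyso, above every Tumor library. Against each of these 2 groups, 3 melanocyte markers were called lower in Tumor and 1 higher, beside 7.74% and 10.5% of all genes lower and 11.8% and 14.2% higher. Against WT 1 was lower and 1 higher. Fibroblast markers moved with the Tumor group. All 10 were above 3 counts in each Tumor library and summed to 7707 to 10709 CPM there, against at most 39.5 CPM in any cultured library, where Col3a1 was at 0 in all relapsed and Lyso libraries and Lum and Thy1 in all WT libraries. Myeloid markers summed to 54.6 to 82.1 CPM in Tumor and 15.3 to 30.6 in WT, and endothelial markers to 276 to 325 and 291 to 428. Most single endothelial markers were nevertheless higher in Tumor, with 6 of 7 tested called against WT (median log2 fold change 3.38), as were 8 of 9 myeloid markers. The fibroblast, myeloid and endothelial markers move with every Tumor comparison below. T cell markers moved with the Lyso group. They summed to 14.1 to 16.6 CPM in Lyso, 3.62 to 9.65 in Tumor, 1.27 to 6.79 in WT and 0.603 to 1.84 in the relapsed lines, with 2 of 3 tested called higher in Lyso than in WT and 3 of 3 than in the relapsed lines. Cd3d and Cd3e were at 0 in every library outside Lyso. The part of these markers in the results was not tested.

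The upstream regions of these genes show which of them share known cell cycle elements. RefSeq promoter windows (build GRCm38.p6, 250 bases before to 50 after the start) were found for 39 of the 50 members. An E2F site was searched as TTTCCCGC, TTTCGCGC, TTTGCCGC or TTTGGCGC, the cell cycle homology region (CHR) of G2/M genes as TTTGAA or TTCGAA, and the CCAAT box, bound by NF-Y, as CCAAT, each on both strands and with no searched word inside another. An E2F word was present in 9 of 39 members (23.1%) and in 2.6% of all 27025 genes with a window. Of the 9, 6 were licensing genes (Mcm3, Mcm5, Mcm6, Mcm7, Cdc6 and Cdt1, of 8 with a window), and the others were Pola1, E2f2 and Cdk1. No member of the spindle checkpoint or chromosome groups held one. A CHR word was present in 19 members (48.7%) and in 21.7% of all genes. It was found in 4 of 6 G2/M cyclins and kinases, 4 of 5 spindle checkpoint genes and 6 of 9 chromosome genes, but in 1 of 7 synthesis genes. The CCAAT box was present in 30 members (76.9%) against 41.1% of all genes, and both CHR and CCAAT in 18 (46.2%) against 9.65%. A match is a description of the letters only. The following stretches, of the 200 bases upstream of the RefSeq start and outside annotated exons, show the pattern for 1 or 2 members of each role group, with the searched words in capitals, written in the direction of transcription.
Cdc6 (chr11:98907982-98908150, plus strand): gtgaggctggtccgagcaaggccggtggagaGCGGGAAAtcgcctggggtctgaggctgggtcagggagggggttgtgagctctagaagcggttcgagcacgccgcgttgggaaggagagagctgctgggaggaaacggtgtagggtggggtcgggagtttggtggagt
Rrm2 (chr12:24708054-24708240, plus strand): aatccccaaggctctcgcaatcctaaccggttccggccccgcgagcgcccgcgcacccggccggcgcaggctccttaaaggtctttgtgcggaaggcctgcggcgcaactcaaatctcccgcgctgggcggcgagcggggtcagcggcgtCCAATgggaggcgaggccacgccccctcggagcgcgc
Ccnd3 (chr17:47593267-47593435, plus strand): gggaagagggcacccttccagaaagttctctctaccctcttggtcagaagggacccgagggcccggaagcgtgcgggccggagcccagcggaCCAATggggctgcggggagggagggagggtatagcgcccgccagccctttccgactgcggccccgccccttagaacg
Aurka (chr2:172370571-172370680, minus strand): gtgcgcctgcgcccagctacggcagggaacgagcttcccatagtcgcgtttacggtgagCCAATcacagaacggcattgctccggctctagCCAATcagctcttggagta
Bub1b (chr2:118598011-118598210, plus strand): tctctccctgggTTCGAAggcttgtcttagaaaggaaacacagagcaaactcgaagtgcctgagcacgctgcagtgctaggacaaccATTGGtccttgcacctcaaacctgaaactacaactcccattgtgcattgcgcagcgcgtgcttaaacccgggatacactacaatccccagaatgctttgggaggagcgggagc
Cdc20 (chr4:118437353-118437543, minus strand): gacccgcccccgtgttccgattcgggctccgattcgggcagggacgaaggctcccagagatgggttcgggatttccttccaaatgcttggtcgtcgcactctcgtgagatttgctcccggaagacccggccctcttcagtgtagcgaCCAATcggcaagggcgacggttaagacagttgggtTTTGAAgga
Kif11 (chr19:37376182-37376381, plus strand): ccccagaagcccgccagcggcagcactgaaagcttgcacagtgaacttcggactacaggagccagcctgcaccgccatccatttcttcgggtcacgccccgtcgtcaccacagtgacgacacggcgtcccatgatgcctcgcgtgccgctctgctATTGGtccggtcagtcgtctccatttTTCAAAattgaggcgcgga
The capitals mark an E2F word in Cdc6, CCAAT boxes in Rrm2, Ccnd3 and Aurka, and a CHR with a CCAAT box in Bub1b, Cdc20 and Kif11 (ATTGG and TTCAAA are the reverse strand of CCAAT and TTTGAA). The Ccnd3 stretch lies before the downstream of its 2 RefSeq starts, in an intron of the longer transcripts. The Aurka stretch lies within the gene of the neighbour Cstf1, which is on the opposite strand, outside its exons.

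Per kilobase of exon, the order of the members was similar at its ends in the 4 groups. Rrm2, the regulated subunit of ribonucleotide reductase, and Pcna, the sliding clamp of DNA polymerases, held the first 2 ranks in every group. Rrm2 averaged 171 ± 67.8 CPM per kb in WT (SD, n = 3) and 106 ± 10.7 in Tumor, and Pcna 115 ± 31.3 and 110.5 ± 4.22. These 2 neighbours did not differ beyond their spread in Tumor. The lowest 2 ranks were Cdc25c, the phosphatase that activates CDK1, at 5.60 ± 1.41 CPM per kb in WT, and E2f2, at 3.90 ± 0.892. The D-type cyclins changed place. Ccnd2 had rank 3 in WT and the relapsed lines and rank 12 in Tumor, where Mcm2 had rank 3.

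The median spread of the members within a group was above that over all genes in WT and the relapsed lines and below it in Lyso and Tumor, in a comparison not matched for level. The median SD of log2 CPM over the members was 0.37 in WT and 0.38 in the relapsed lines, against 0.29 and 0.24 over all 14924 genes tested, and 0.076 in Lyso and 0.098 in Tumor, against 0.12 and 0.17. For all genes, but not for the members, a small constant was added to CPM before the log2. All genes also include genes with fewer counts than any member. In WT, the shallowest library stood apart. WT 1 was the lowest WT library for 44 of 50 members, against 44.1% of all genes, and WT 2 the highest for 40. Cdc6, which loads the MCM ring, ranged most, at 18.7, 85.3 and 54.8 CPM in WT 1, 2 and 3. Among the relapsed lines ITM was the highest for 44 of 50 members, against 32.4% of all genes, and Rel the lowest for 29 and ITF1 for 19. Ccnd1 ranged most there, at 44.8, 142 and 152 CPM in ITF1, Rel and ITM. In Lyso, Ccna2 and Aurkb differed by 1.01 times between the highest and the lowest library, and in Tumor Plk1 by 1.03 times. Over all 12 libraries, WT 2 was the highest for 28 members and WT 1 the lowest for 16, ITF1 for 13. WT 1 had the fewest counts on genes and low member levels. WT 2, with 2350129 counts on genes against 16384021 in WT 3, was nearly as shallow and had high member levels. The part of depth was not tested.

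**Figure D1:**
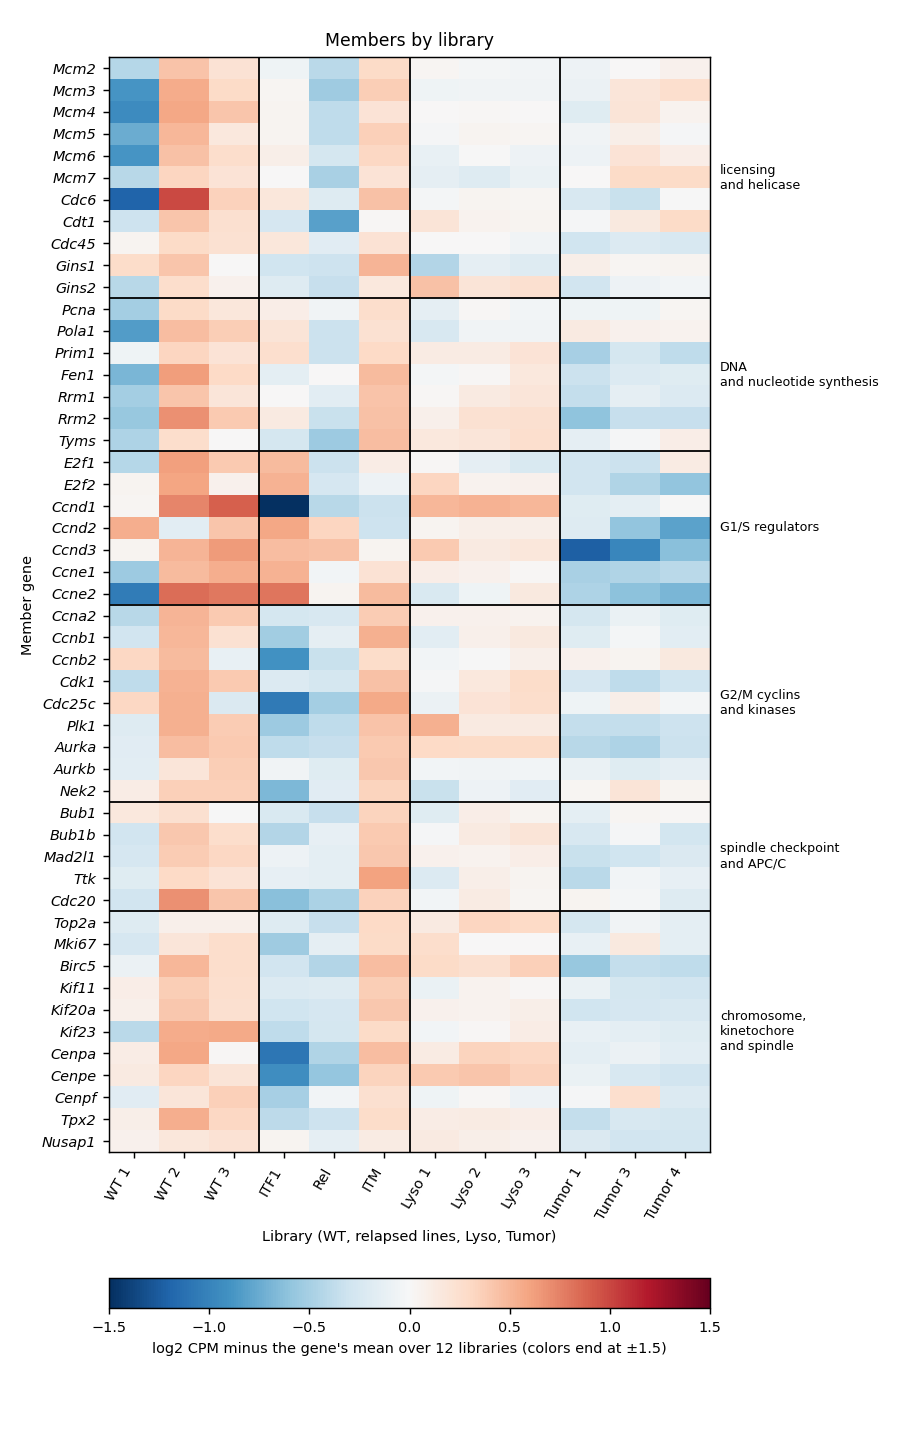
Level of each of the 50 members (rows, by role group) in each of the 12 libraries (columns), as log2 CPM minus the gene's own mean over the 12 libraries, with blue below and red above that mean. Most rows are low in WT 1 and high in WT 2 and ITM, Lyso columns are even, and the deepest blue in the Tumor columns lies at Ccnd3.

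The role groups differed in which libraries were low. The summed level of the 7 G1/S regulators was 813 to 931 CPM in Tumor, below every other library, with 1423 to 1743 in WT, 1060 to 1510 in the relapsed lines and 1325 to 1348 in Lyso. The 11 licensing genes summed to 1699 to 1945 CPM in Tumor, inside the range of WT (1191 to 2494) and of the relapsed lines (1364 to 2199). The 9 G2/M cyclins and kinases summed to 923 to 945 CPM in Tumor, 932 to 1469 in WT, 813 to 1412 in the relapsed lines and 1115 to 1157 in Lyso, so that Tumor lay below Lyso and overlapped the other groups. The 11 chromosome, kinetochore and spindle genes summed to 1612 to 1760 CPM in Tumor, overlapping WT (1756 to 2287) by 1 library on each side. These sums are descriptions with no test.

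**Figure D2:**
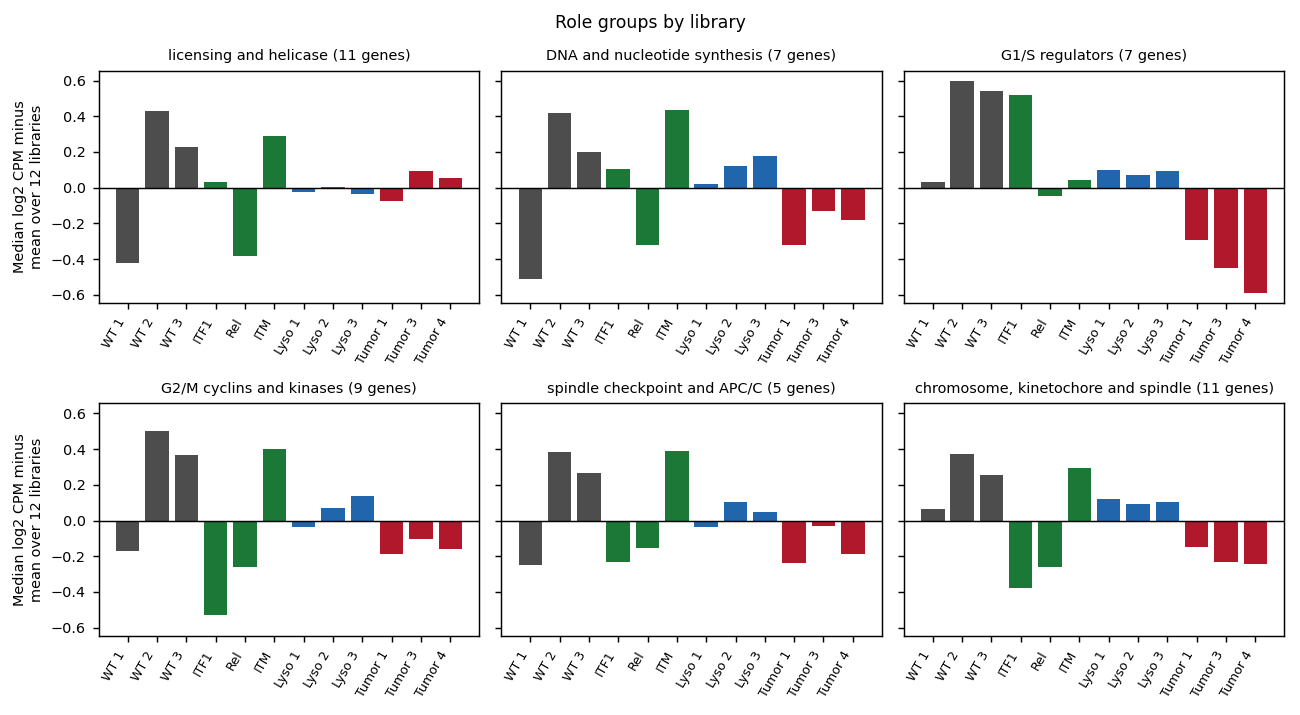
Median over the genes of each role group of log2 CPM minus the gene's mean over 12 libraries, one bar per library (gray WT, green relapsed lines, blue Lyso, red Tumor). The red bars stand at -0.59 to -0.29 in the G1/S panel and near 0 in the licensing panel, at -0.08 to 0.09.

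Cyclin D3 was the member with the clearest difference. Ccnd3, 1 of the 3 D-type cyclins that activate CDK4 and CDK6 in G1, stood at 205, 283 and 308 CPM in WT 1, 2 and 3, 274, 268 and 205 in ITF1, Rel and ITM, 259.9, 217 and 223 in Lyso 1, 2 and 3 and 85.2, 101 and 128 in Tumor 1, 3 and 4. All Tumor libraries lay below all 9 others. In edgeR's quasi-likelihood test with Benjamini-Hochberg adjustment over all 14924 genes, used for every adjusted p below unless another tool is named, Ccnd3 was lower in Tumor than in WT by a log2 fold change of -1.34 ± 0.19 (SE), a 2.54-fold difference with an adjusted p of 0.000381. Against the relapsed lines it was -1.25 ± 0.19 (adjusted p = 0.000477) and against Lyso -1.15 ± 0.19 (adjusted p = 0.000749). The 3 comparisons share the Tumor libraries. Leaving out any 1 library kept the adjusted p at or under 0.00624 in all 3. It was the only member of which this held. A Ccnd3-ps copy is annotated, and reads that match both places equally well are not in the counts.

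Cyclin D2 was also lower in Tumor. Ccnd2 stood at 923, 570.0 and 843 CPM in WT 1, 2 and 3, 946, 789 and 510.4 in ITF1, Rel and ITM, 651, 672 and 676 in Lyso 1, 2 and 3 and 552, 419 and 362 in Tumor 1, 3 and 4. Tumor 1 was the highest Tumor library and lay below every WT library but above ITM. The log2 fold change was -0.81 ± 0.24 against WT (adjusted p = 0.0306), -0.75 ± 0.24 against the relapsed lines (adjusted p = 0.0406) and -0.59 ± 0.24 against Lyso, which did not pass (adjusted p = 0.0888). Cyclin D1 went another way. Ccnd1 stood at 195, 316 and 356 CPM in WT 1, 2 and 3, 44.8, 142 and 152 in ITF1, Rel and ITM, 268, 272 and 268 in Lyso 1, 2 and 3 and 168, 171 and 190.0 in Tumor 1, 3 and 4. The 3 relapsed lines were the lowest libraries for this gene, ITF1 far below the others, and Lyso was even and above them. Lyso exceeded the relapsed lines by 1.25 ± 0.34 (adjusted p = 0.0445), the only member to pass in that comparison. The relapsed lines lay below every WT library, with a log2 fold change of -1.36 ± 0.35 that did not pass (adjusted p = 0.181), and Tumor above every relapsed line, with 0.64 ± 0.34 (adjusted p = 0.221). DESeq2, the tool the study used, did call Ccnd1 lower in the relapsed lines than in WT (adjusted p = 0.016). On 23.4% of its exonic bases Ccnd1 overlaps LTO1 on the opposite strand, and the strand setting of the counts is not given in the sources used here.

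The E-type cyclins, which activate CDK2 at the entry into S phase, were low and even in Tumor. Ccne1 stood at 41.3, 84.0 and 87.9 CPM in WT 1, 2 and 3, 86.5, 58.6 and 70.2 in ITF1, Rel and ITM, 64.8, 63.4 and 61.2 in Lyso 1, 2 and 3 and 43.2, 44.3 and 45.7 in Tumor 1, 3 and 4, so that only WT 1 was as low as Tumor. Ccne2 stood at 17.0, 62.9 and 60.6 CPM in WT 1, 2 and 3, 61.0, 36.2 and 48.6 in ITF1, Rel and ITM, 29.9, 33.6 and 39.0 in Lyso 1, 2 and 3 and 25.4, 22.9 and 21.9 in Tumor 1, 3 and 4, again with WT 1 below Tumor. Ccne1 was lower in Tumor than in WT by -0.71 ± 0.22 (adjusted p = 0.0434) and than in the relapsed lines by -0.69 ± 0.22 (adjusted p = 0.0426). Ccne2 was lower in Tumor than in the relapsed lines by -1.06 ± 0.34 (adjusted p = 0.0437), and its difference from WT, -1.06 ± 0.35, fell just outside the threshold (adjusted p = 0.0502). Without WT 1 both passed against WT, at -0.96 (adjusted p = 0.000656) and -1.41 (adjusted p = 0.000497). Without any other 1 library neither passed against WT, with adjusted p-values up to 0.206 for Ccne1 and 0.211 for Ccne2. Against the relapsed lines both passed without Rel, and neither without any other 1 library, with adjusted p-values up to 0.126 and 0.13. The 2 E2F genes of the group, which encode activator E2Fs, did not pass in any comparison. E2f1 stood at 40.2, 82.8 and 71.1 CPM in WT and 44.5, 43.3 and 58.8 in Tumor. E2f2 stood at 16.4, 24.1 and 16.6 in WT and 13.0, 11.7 and 10.6 in Tumor, with all Tumor libraries below WT.

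**Figure D3:**
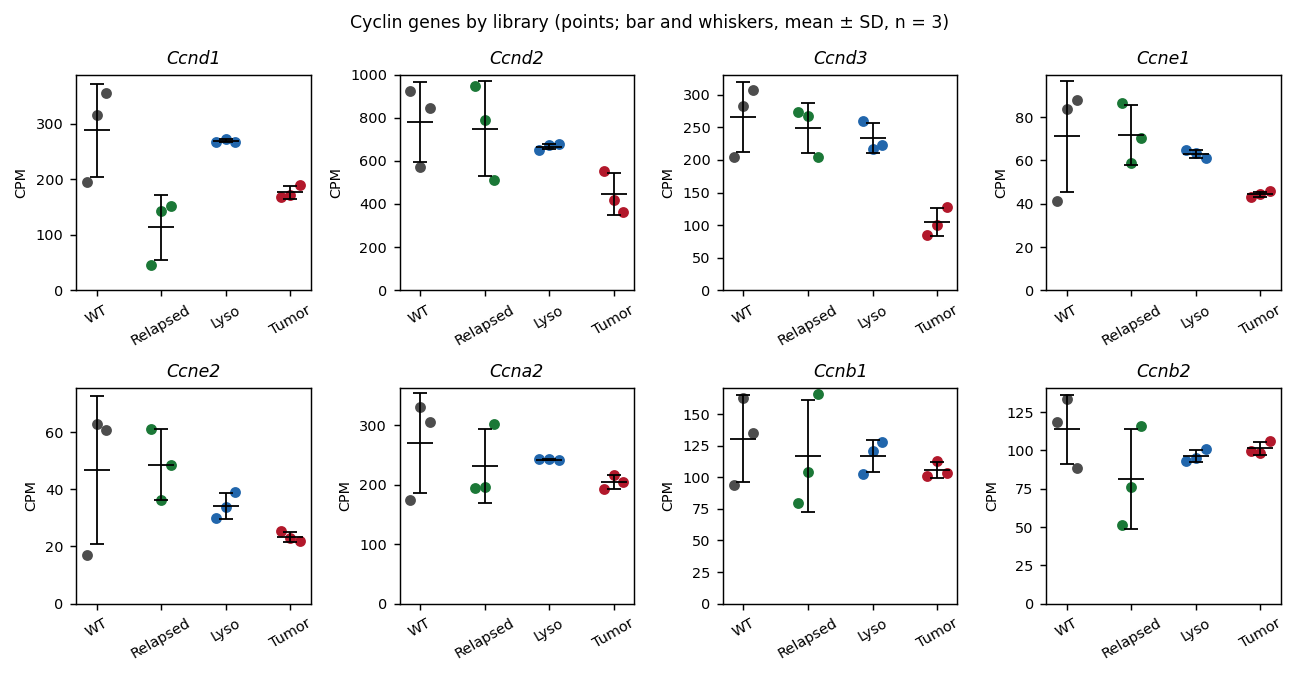
CPM of the 8 cyclin genes in each library (points) with the mean and SD of each group (n = 3), each axis starting at 0. Tumor points lie below all others for Ccnd3, relapsed lines lowest for Ccnd1, and the groups overlap for Ccna2, Ccnb1 and Ccnb2 apart from Tumor lying below Lyso for Ccna2.

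Cyclin A and the B cyclins did not differ between groups by the test. Ccna2, which acts with CDK2 in S phase and CDK1 in G2, stood at 174, 330.2 and 305 CPM in WT 1, 2 and 3, 194, 197 and 303 in ITF1, Rel and ITM, 242, 243 and 241 in Lyso 1, 2 and 3 and 193, 216 and 204 in Tumor 1, 3 and 4. Lyso libraries were within 1.01 times of each other and above all Tumor libraries, while WT ranged from below Tumor to above Lyso. Ccnb1, a partner of CDK1 in mitosis, stood at 94.0, 163 and 135 CPM in WT 1, 2 and 3, 79.8, 104 and 166 in ITF1, Rel and ITM, 103, 121 and 128 in Lyso 1, 2 and 3 and 101, 113 and 103 in Tumor 1, 3 and 4. Ccnb2 stood at 119, 133 and 88.7 CPM in WT 1, 2 and 3, 51.2, 76.1 and 116 in ITF1, Rel and ITM, 93.2, 95.1 and 101 in Lyso 1, 2 and 3 and 99.8, 98.2 and 106 in Tumor 1, 3 and 4, with ITF1 the lowest of the 12. Their log2 fold changes between Tumor and WT were -0.40 ± 0.22, -0.31 ± 0.24 and -0.15 ± 0.24, with adjusted p-values of 0.229, 0.42 and 0.711. Cdk1, the mitotic kinase itself, stood at 157, 294 and 268 CPM in WT 1, 2 and 3, 177, 170.4 and 277 in ITF1, Rel and ITM, 201, 229 and 247 in Lyso 1, 2 and 3 and 172, 157 and 166 in Tumor 1, 3 and 4. Tumor overlapped WT at WT 1, and the difference of -0.55 ± 0.23 did not pass (adjusted p = 0.114). Copies with the suffix -ps are annotated for Ccnb1 and Ccnb2 as well as for Pcna and Tyms.

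Mki67, Pcna and Mcm2, 3 common proliferation markers, showed no called difference. Mki67, which coats mitotic chromosomes, stood at 279, 376 and 399 CPM in WT 1, 2 and 3, 230.2, 303 and 406 in ITF1, Rel and ITM, 399, 334 and 334 in Lyso 1, 2 and 3 and 308, 369 and 301 in Tumor 1, 3 and 4. Tumor lay inside the range of WT, and the log2 fold change was -0.11 ± 0.20 (adjusted p = 0.75), 0.06 ± 0.20 against the relapsed lines and -0.13 ± 0.20 against Lyso. Pcna stood at 190.2, 331 and 305 CPM in WT 1, 2 and 3, 291, 262 and 324 in ITF1, Rel and ITM, 247, 274 and 263 in Lyso 1, 2 and 3 and 259, 259 and 277 in Tumor 1, 3 and 4, with differences of -0.06 ± 0.17, -0.14 ± 0.17 and 0.02 ± 0.17. Mcm2, a subunit of the replicative helicase, stood at 366, 660.3 and 571 CPM in WT 1, 2 and 3, 468, 372 and 600.0 in ITF1, Rel and ITM, 500.5, 481 and 479 in Lyso 1, 2 and 3 and 466, 494 and 515 in Tumor 1, 3 and 4. Its differences in the same 3 comparisons were -0.12 ± 0.21, 0.03 ± 0.20 and 0.01 ± 0.20. None of the 3 markers passed in any of the 6 comparisons, which does not show that their levels were equal. Approximate 95% intervals of the Tumor against WT difference ran from -0.50 to 0.28 for Mki67 and from -0.52 to 0.29 for Mcm2. These intervals take the normal distribution, and intervals from the test itself would be wider.

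Tumor was compared with WT to see how the cells in relapsed tumors differed from untreated cells. Of the 50 members 9 were lower and 0 higher, beside 6.94% of all genes lower and 12.1% higher (19% in all, against 18% of the members). Called lower were 3 G1/S regulators (Ccnd2, Ccnd3 and Ccne1), 3 chromosome and spindle genes (Birc5, Tpx2 and Nusap1), 1 kinase (Aurka), 1 helicase gene (Cdc45) and 1 synthesis gene (Prim1). At an unadjusted p under 0.05 there were 17 members, against 32.1% of all genes. The median log2 fold change was -0.39 over the members and 0.00 over all genes, and 46 of 50 members were below 0, against 49.9% of all genes. By role group the medians were -0.72 for the G1/S regulators, -0.43 for the chromosome genes, -0.34 for the spindle checkpoint, -0.31 for synthesis and for the G2/M kinases, and -0.12 for licensing. In 15 members all Tumor libraries lay below all WT libraries, beside 15.1% of all genes, and in 0 above, beside 21%.

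The called members outside G1/S had small, even differences. Birc5, or survivin, a subunit of the chromosomal passenger complex, stood at 105, 158 and 134 CPM in WT, 136, 132 and 144 in Lyso and 75.4, 87.2 and 85.9 in Tumor, and was lower in Tumor by -0.68 ± 0.21 against WT (adjusted p = 0.0436). Aurka, the Aurora kinase of centrosomes and spindle poles, stood at 75.3, 117 and 111, 104, 103 and 103 and 63.4, 61.6 and 67.8 in the same order, with -0.66 ± 0.21 (adjusted p = 0.0404). Tpx2, which activates Aurora A on the spindle, stood at 189, 259.7 and 220.3 in WT and 139, 149.8 and 148 in Tumor, with -0.62 ± 0.17 (adjusted p = 0.0236). In each of the 3, no Tumor library reached the lowest WT library. Nusap1, a microtubule-binding spindle protein, had the smallest spread, at 90.0, 96.7 and 100.3 in WT and 73.8, 70.4 and 71.3 in Tumor, with -0.42 ± 0.10 (adjusted p = 0.0128). Cdc45, a part of the active helicase, stood at 54.3, 64.6 and 62.1 and 43.2, 46.1 and 45.0, with -0.44 ± 0.12 (adjusted p = 0.0267). Prim1, the catalytic subunit of primase, stood at 63.4, 83.2 and 76.2 and 47.1, 55.2 and 51.1, with -0.54 ± 0.16 (adjusted p = 0.0348). The groups did not overlap for any of these 6 genes.

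The licensing genes had the median nearest to 0 of the 6 role groups, though Cdc6 was at -0.51 ± 0.35 (adjusted p = 0.339). Mcm7, Mcm6 and Tyms (thymidylate synthase) had the highest values against WT, 0.12, 0.03 and 0.01 on the log2 scale, and none was called. Their signs turned under other settings, and without WT 1 they were -0.07, -0.28 and -0.14. The number of members called rested on single libraries. Without WT 1 it was 21, all lower and beside 24.2% of all genes, and Cdc6, Rrm1, Rrm2, Fen1, Cdk1 and Plk1 were among them. Leaving out any 1 of the other 5 libraries gave 1 to 3, beside 11.2% to 14.9% of all genes, and Ccnd3 was called each time. With a log2 fold change beyond 1 asked for as well, Ccnd3 alone was called against WT and against Lyso, Ccnd3 and Ccne2 against the relapsed lines, and Ccnd1 in Lyso against the relapsed lines, beside 10.8%, 12.9%, 10.7% and 4.25% of all genes. No member was called by this rule in Lyso against WT (3% of all genes) or in the relapsed lines against WT (0.0402%).

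**Figure D4:**
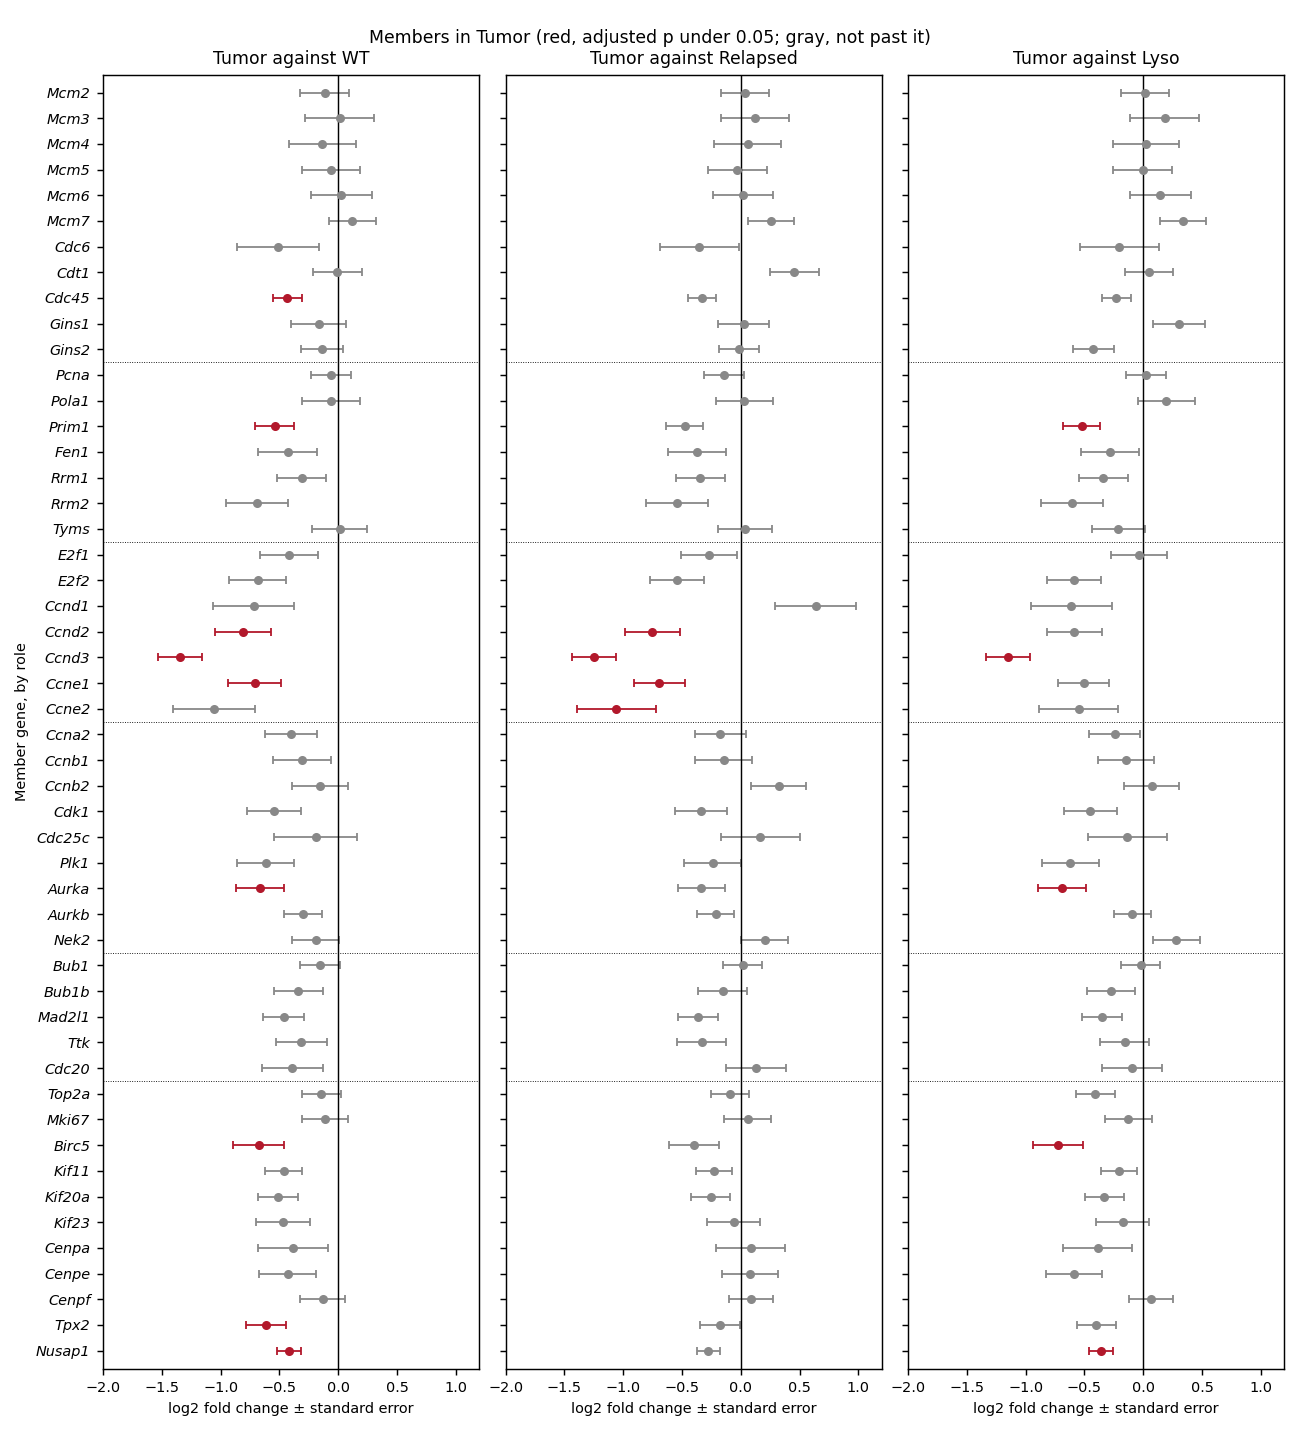
log2 fold change with its standard error for the 50 members in Tumor against WT, the relapsed lines and Lyso, with members past an adjusted p of 0.05 in red and the others in gray. Nearly all points lie left of 0 against WT, with Ccnd3 lowest, and against the relapsed lines only D- and E-type cyclins are red.

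Tumor and the relapsed lines both came from relapsed tumors, and only the lines were cultured before RNA was taken. Of the members 4 were lower in Tumor and 0 higher, beside 7.74% of all genes lower and 11.8% higher (19.6% in all, against 8% of the members). All 4, Ccnd2, Ccnd3, Ccne1 and Ccne2, were D- and E-type cyclins, whose values stand above. At an unadjusted p under 0.05 there were 9, against 32.7% of all genes. In 9 members all Tumor libraries lay below all relapsed lines and in 1, Ccnd1, above, beside 17.4% and 20.1% of all genes. The median over the members was -0.15, against -0.01 over all genes, with 31 of 50 below 0. Licensing genes had a median of 0.03 and G1/S regulators of -0.69. The highest values were Ccnd1 (0.64 ± 0.34), the licensing factor Cdt1 (0.46 ± 0.21) and Ccnb2 (0.32 ± 0.23), none called. Cdt1 stood at 86.3, 58.4 and 104 CPM in ITF1, Rel and ITM and at 101, 114 and 126 in Tumor, so that the groups overlapped at ITM. The outcome changed with the line left out. Without ITM, the line with the highest member levels, 7 members were called, beside 21.6% of all genes. Of these, 5 were higher in Tumor (Ccnb2, Cdc25c, Cdt1, Cenpe and Nek2) and 2 lower (Ccnd2 and Ccnd3), and the median over the members was 0.11. Without Rel 6 members were called, all lower (Ccnd3, Ccne1, Ccne2, Cdc45, Nusap1 and Prim1), beside 17.6% of all genes. Without ITF1 Ccnd3 alone was called, lower, beside 19.4%.

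Lyso cells met T cell granules in culture, while Tumor cells came from treated tumors. Of the members 5 were lower in Tumor and 0 higher, beside 10.5% of all genes lower and 14.2% higher (24.7% in all, against 10% of the members). They were Ccnd3, Birc5 (-0.73 ± 0.21, adjusted p = 0.0246), Aurka (-0.69 ± 0.20, adjusted p = 0.0256), Prim1 (-0.52 ± 0.16, adjusted p = 0.0294) and Nusap1 (-0.36 ± 0.10, adjusted p = 0.0211). Prim1 stood at 72.2, 72.3 and 76.4 CPM in Lyso and Nusap1 at 94.3, 91.8 and 89.9, both above all Tumor libraries. The highest values were Mcm7 (0.34 ± 0.20), Gins1 (0.30 ± 0.22), a GINS subunit, and Nek2 (0.28 ± 0.20), a centrosome kinase, none called. Gins1 stood at 15.8, 19.6 and 18.8 CPM in Lyso and 22.8, 21.9 and 22.1 in Tumor, and Nek2 at 52.8, 63.5 and 59.4 and 67.9, 76.5 and 69.0, neither overlapping. At an unadjusted p under 0.05 there were 14, against 37.1% of all genes. The libraries of the 2 groups did not overlap in 28 members with Tumor lower and 4 with Tumor higher, beside 26.8% and 28% of all genes. Both groups were even within themselves. Lyso 2 and Lyso 3 differed little beyond sampling noise (chi-square per degree of freedom 1.59, against 13.2 and 12.9 with Lyso 1). These data do not show whether they were separate cultures. The count of members called depended on the libraries fitted together. With only these 6 libraries in the fit 27 members were called, 25 lower and 2 higher (Mcm7 and Nek2), beside 46.8% of all genes. Leaving out any 1 of the 6 from the fit of 12 libraries left Ccnd3 alone, beside 16.3% to 18.4% of all genes.

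Incubation with granules was tested against untreated culture. None of the members was called in Lyso against WT by edgeR or by DESeq2, beside 4.71% of all genes by edgeR (3.5% higher and 1.21% lower) and 6.09% by DESeq2, and 1 had an unadjusted p under 0.05 (18.7% of all genes). The median was -0.14 over the members and -0.00 over all genes, and 40 of 50 were below 0. The lowest values were Ccne2 (-0.51 ± 0.33), Nek2 (-0.47 ± 0.20) and Gins1 (-0.47 ± 0.22). Nek2 stood at 71.9, 85.3 and 85.8 CPM in WT, above all Lyso libraries. The highest were Gins2 (0.29 ± 0.17), Top2a (0.26 ± 0.16), the topoisomerase that untangles sister chromosomes, and Tyms (0.23 ± 0.23). Top2a stood at 459, 551 and 550.4 CPM in WT and 576, 653 and 644 in Lyso, with all Lyso libraries above WT. Gins2 shares 67.3% of its exonic bases with Gse1 on the opposite strand. The groups did not overlap in 4 members with Lyso lower and 2 with Lyso higher, beside 11.6% and 15.8% of all genes. Without WT 1, Ccne2 was called lower (-0.85, adjusted p = 0.0219), beside 5.97% of all genes called. The median over the members ranged from -0.32 without WT 1 to 0.03 without WT 2.

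The relapsed lines were compared with WT to see whether lines grown from relapsed tumors kept a difference. None of the members was called by edgeR, beside 0.0402% of all genes (0.0134% higher and 0.0268% lower), and 3 had an unadjusted p under 0.05 (11% of all genes), while DESeq2 called 1 of the 50, Ccnd1, beside 1.12% of all genes by that tool. The median was -0.16 over the members and 0.01 over all genes, and 45 of 50 were below 0. Ccnd1 was the 1 member whose libraries did not overlap, beside 4.19% of all genes lower and 6.43% higher in this way. The next lowest were Cdc20, the activator of the APC/C (-0.52 ± 0.25), and Cenpe, a kinetochore motor (-0.51 ± 0.24). Cenpe stood at 108, 123 and 112 CPM in WT and at 51.5, 66.0 and 124 in ITF1, Rel and ITM, with ITM above the WT libraries and the other lines below them. The highest values were Pcna, Rrm1 (the large subunit of ribonucleotide reductase) and Ttk (a checkpoint kinase), at 0.08, 0.03 and 0.02. Their signs turned under other settings, and without WT 1 they were -0.13, -0.20 and -0.10. The count changed with the line left out here too. Without ITM Cenpa (-0.98), Cenpe (-0.96), Kif20a (-0.52) and Tpx2 (-0.68) were called lower, beside 1.48% of all genes. Without ITF1 Ccnd1 alone was called lower (adjusted p = 0.0479), beside 0.853% of all genes. Without Rel no member was called, beside 0.0195%.

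Lyso and the relapsed lines differed in 1 member, Ccnd1, beside 4.87% of all genes higher and 2.81% lower in Lyso (7.69% in either direction), and 4 members had all Lyso libraries above all relapsed lines, beside 15.3% of all genes. At an unadjusted p under 0.05 there were 3, against 22.3% of all genes. The median was 0.04 over the members and -0.01 over all genes. The next highest values were Cenpe (0.67 ± 0.24) and Cenpa, the centromeric histone (0.47 ± 0.29), and the lowest Ccne2 (-0.51 ± 0.32), Gins1 (-0.27 ± 0.21, which turned to 0.05 without ITM) and E2f1 (-0.23 ± 0.23), none called. Cenpe stood at 129, 131 and 125 CPM in Lyso, against 51.5, 66.0 and 124 in ITF1, Rel and ITM. Without ITM 11 members were higher in Lyso, beside 11.7% of all genes called, among them Aurka, Birc5, Plk1, Top2a and Tpx2. Without Rel or any 1 Lyso library, and in a fit of these 6 libraries alone, Ccnd1 was not called.

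The other genes of the same pathways, taken from lists chosen by function, were also lower in Tumor than in WT where they passed. In Tumor against WT, 5 of 42 other replication genes were lower and 0 higher, and 16 of 70 other mitosis genes lower and 0 higher, beside the same 6.94% and 12.1% of all genes. Gins3, a GINS subunit, stood at 22.8 ± 4.98 CPM in WT (SD, n = 3) and 10.6 ± 1.94 in Tumor (-1.11 ± 0.21, adjusted p = 0.00311), and Asf1b, a histone chaperone of S phase, differed by -0.74 ± 0.16 (adjusted p = 0.00744). Mis12, a kinetochore scaffold, stood at 59.2 ± 4.90 CPM in WT and 29.2 ± 3.45 in Tumor (-1.02 ± 0.13, adjusted p = 0.000181), and Hmmr, a spindle-associated protein, differed by -0.96 ± 0.16 (adjusted p = 0.00137). The medians of the 2 lists were -0.22 and -0.28. Of 18 other E2F and pocket protein genes, E2f6 (-0.59 ± 0.13) and E2f4 (-0.51 ± 0.14), both repressor E2Fs, were lower.

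Against the relapsed lines, 2 other replication genes were lower in Tumor (Gins3, -1.10 ± 0.20, and Asf1b, -0.60 ± 0.16) and 1 was higher (Chaf1b, of the chromatin assembly factor, 0.59 ± 0.15). Of the 70 other mitosis genes 6 were lower (8.57%) and 0 higher, beside 7.74% and 11.8% of all genes. The smallest p-values among them were those of Mis12 (-1.14 ± 0.13, adjusted p = 3.58e-05) and Spc25 of the NDC80 complex (-0.83 ± 0.14). Cdk6, a partner of the D cyclins, was higher (0.94 ± 0.28, adjusted p = 0.0328), and E2f6 and the pocket protein gene Rbl2 (-0.50 ± 0.14) lower. Against Lyso, 2 replication genes (Gins3 and Rfc5) and 9 mitosis genes (12.9%) were lower, beside 10.5% of all genes. The smallest p-values among the 9 were those of Gtse1 (-1.23 ± 0.18, adjusted p = 0.000379) and Mis12 (-0.80 ± 0.13). Wee1, the kinase that inhibits CDK1, was higher (0.58 ± 0.19, adjusted p = 0.0449). E2f3 was higher (0.52 ± 0.11) and E2f4 lower (-0.49 ± 0.13) there. Lyso against WT had 1 other replication gene (Rpa3, -0.62 ± 0.16) and 1 other mitosis gene (Cenpi, -0.62 ± 0.16) lower, beside 1.21% of all genes, and Lyso against the relapsed lines had Psrc1 higher (0.96 ± 0.20) and Rbl2 lower (-0.68 ± 0.13). Relapsed against WT had none by edgeR, with 1 of 42, 8 of 70 and 1 of 18 genes of the 3 lists at an unadjusted p under 0.05, beside 11% of all genes.

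The CDK inhibitors, which oppose the cyclins, did not move together. Cdkn1c (p57) was near the floor in culture, at 0.566, 0.422 and 0.531 CPM in WT, and stood at 2.60, 6.04 and 4.94 in Tumor, from 8 to 30 counts a library. It was higher in Tumor than in WT by 3.13 ± 0.65 (adjusted p = 0.00463), than in the relapsed lines (adjusted p = 0.000176) and than in Lyso (adjusted p = 0.000534). The Tumor libraries are those with the fibroblast markers. Cdkn2d (p19) was lower in Tumor than in WT, at 23.7, 27.0 and 22.4 against 37.9, 53.6 and 46.4 CPM (-0.92 ± 0.15, adjusted p = 0.00121), lower in Tumor than in the relapsed lines (-0.93 ± 0.15), and lower in Lyso than in WT (-0.57 ± 0.15) and than in the relapsed lines (-0.59 ± 0.14). Cdkn2c (p18) was lower in Tumor than in the relapsed lines (-0.70 ± 0.18, adjusted p = 0.0161). Cdkn1a (p21), a target of p53, stood at 354, 222 and 430.4 in WT, 552, 188 and 146 in ITF1, Rel and ITM, 466, 375 and 390.3 in Lyso and 203, 149 and 131 in Tumor. It was lower in Tumor than in Lyso (-1.35 ± 0.41, adjusted p = 0.0305) and did not pass against WT (-1.07 ± 0.41, adjusted p = 0.093). Cdkn1b (p27) stood at 211, 97.5 and 81.9 in WT and 162, 157 and 163 in Tumor and did not pass in any comparison. Cdkn2a had 0 counts in all 12 libraries, and Cdkn2b had 2 counts in Tumor 3 and 0 in the others. Neither was tested.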

How the data were processed

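RNA was sequenced from 12 libraries in 4 groups of 3, taken from the sample labels. The submitters' notes name fastp 0.19.6, STAR 2.7.1a, DESeq2 1.24.0 and the build GRCm38, and the authors deposited raw counts per gene without normalization. Strand setting and annotation release are not given in the sources used here. Between 43.53% and 44.77% of reads fell on no feature and were left out of library sizes. Symbols and exon lengths came from GENCODE M21 (GRCm38). Counts were tested with edgeR 4.0.16 in R 4.3.3 (glmQLFit, glmQLFTest, TMM, filterByExpr) in 1 fit of 12 libraries, with Benjamini-Hochberg adjustment over 14924 genes and a threshold of 0.05. DESeq2 1.42.0, RLE scaling, library size only, other filters, fits of the compared groups, a replicate block, WT 3 as the only WT library and leaving out each library were the alternatives. Counts were simulated for Tumor against WT (14637 genes tested). There edgeR recovered 88 of 100 genes changed by 1.5 and 100 of 100 changed by 3 on the log2 scale, and called 8 others. The simulation gave every gene the same spread and changed only genes with many counts. Every member difference called in the fit reported was smaller than 1.5, so this recovery does not show the sensitivity for the members. Members and lists were chosen with earlier results of these data known. Named were 8 cyclins, Cdk1, Mki67, Pcna and Mcm2, every called member, the 3 largest differences in each direction, the 2 smallest p-values per list and direction, and every CDK inhibitor; members named beside these were chosen after their values were seen. The smallest exact permutation p for 3 against 3 is 0.1, so none was run. In the shallowest library 3 counts stand for 1.80 CPM. Within the groups no 2 libraries were alike within sampling noise, but Lyso 2 and Lyso 3 came near it. Their chi-square per degree of freedom was 1.59, against 13.2 and 12.9 for Lyso 1 with each of them, and 3.89 for the next closest pair (Tumor 3 and Tumor 4).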

Additional observations from a re-analysis of the deposited data

How the results depend on the processing

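Ccnd3 was lower in Tumor under every alternative run in all 3 comparisons. The number of members called was less stable. The share of all genes called in the same way follows each count in brackets. In Tumor against WT, 9 in the fit reported (19%), it was 14 with library size as the only scaling (20%) and 19 without a filter on low counts (11.9%). The number was 5 with at least 10 counts in every library (14.6%) and 1 with an absolute log2 fold change over 1 (10.8%). With a library left out it was 1 to 21 (11.2% to 24.2%). In Tumor against the relapsed lines, 4 in the fit reported (19.6%), it was 2 with at least 10 counts (16.2%) and 2 with the fold minimum (10.7%). With a library left out it was 1 to 7 (13% to 21.6%). In Tumor against Lyso, 5 in the fit reported (24.7%), it was 10 without a filter (14.8%) and 27 with only the compared groups (46.8%). It was 1 with the fold minimum (12.9%) and 1 with any library left out (16.3% to 18.4%). In Relapsed against WT, 0 in the fit reported (0.0402%), it was 1 without a filter (1.46%) and 1 with DESeq2 (1.12%). With a library left out it was 0 to 4 (0% to 1.48%). In Lyso against WT, 0 in the fit reported (4.71%), it was 0 to 1 with a library left out (2.24% to 5.97%). In Lyso against Relapsed, 1 in the fit reported (7.69%), it was 2 without a filter (6.55%) and 0 with only the compared groups (6.33%). With a library left out it was 0 to 11 there (3.35% to 11.7%). The cause was not tested. Leaving out a library also leaves fewer samples. Library size as the only scaling moved the median of all genes in Lyso against WT from -0.00 to -0.10, and that of the members from -0.14 to -0.23.

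Signs turned in members that were not called in the fit reported. In Relapsed against WT, Pcna was -0.058 with WT 3 as the only WT library and -0.13 to 0.23 with a library left out, Rrm1 -0.061 and -0.20 to 0.24, and Ttk -0.044 and -0.27 to 0.15, with -0.0096 for Ttk by library size only. In Tumor against WT, Mcm6 was -0.033 by library size only, -0.021 without a filter, -0.20 with WT 3 alone and -0.28 to 0.26 with a library left out, Mcm7 -0.028 with WT 3 alone and -0.068 to 0.25, and Tyms -0.048, -0.031, -0.032 and -0.14 to 0.17 in the order of Mcm6. Gins1 in Lyso against Relapsed was -0.42 to 0.054 with a library left out. Over the alternatives, the called members and the 3 largest differences in each direction of every comparison were followed. Of their values 464 kept their side of the threshold and direction, 100 lost the call, 18 gained it and 22 changed sign. Only members called in the fit reported could lose a call, and the 464 also hold values of members not called there.

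Replicate numbers shared by WT, Lyso and Tumor gave little sign of pairing. Deviations from the group mean correlated at -0.0081 to 0.065 between same-numbered libraries and at -0.053 to 0.059 between others. With 3 libraries in a group such correlations cannot exclude pairing. With the replicate number as a block in a fit of 9 libraries, 4 members were called in Tumor against WT (Birc5, Ccnd2, Ccnd3 and Tpx2), beside 13.4% of all genes. In Tumor against Lyso 5 were called (Aurka, Birc5, Ccnd3, Cenpe and Prim1, with Cenpe gained and Nusap1 lost), beside 18.8% of all genes. In Lyso against WT 1 was called (Nek2, lower), beside 5.88% of all genes. WT 1, with the fewest counts, limits the depth of every comparison with WT.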
